A study of Mus musculus with 24 samples.

Results

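The RNA on the outer surface of mouse NK cells was compared with that of splenic B cells and T cells. The members were the 3 NK cell libraries, set against 3 B cell and 3 T cell libraries, so that 9 of the 15 surface libraries and of the 24 libraries of the series entered the comparison. All 9 came from the spleens of untreated wild-type (WT) C57BL/6 mice, with no age given, and red blood cells had been lysed in every sample. B cells were obtained with a B cell isolation kit, NK cells with an NK cell isolation kit, and the cells labelled T cell with a CD8 T cell isolation kit, so the T cell group stands for CD8 T cells and not for all T cells. In AMOUR, the assay used, fixed cells held on Concanavalin A beads were annealed with a random primer that carries a T7 promoter, the RNA it reached was amplified in place by T7 RNA polymerase, and the product was sequenced. The study states that no present method, AMOUR included, wholly removes the risk that RNA from inside the cell is measured. Below, RNA on a cell or its surface means RNA measured by AMOUR, and the part from inside the cell was not tested. Abundance was given as TPM, transcripts per 1000000, which is scaled to transcript length and to the total of each library. Of 102168 transcripts listed, 1353 exceeded 10 TPM in at least 1 of the 9 libraries and were tested, of which 485 were protein-coding.

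NK cells are innate lymphocytes that kill infected or transformed cells. Perforin opens the target membrane, granzymes then start cell death inside the target, and chemokines released by NK cells draw in other leukocytes. Whether a target is attacked depends on receptors such as NKp46, NKG2D and the Ly49 family. These are germline-encoded, in contrast to the rearranged antigen receptors of B and T cells, and the activating ones signal through small adaptor proteins. RNA on the outside of living cells has been described for several RNA classes, and the comparison asked which of it differs between the 3 lymphocyte types.

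Values for a cell type are given below in the order of its replicate numbers 1, 2 and 3. Fold changes are differences of log2(TPM + 1) between the NK mean and the average of the B and T means unless one of the cell types is named, with adjusted p-values from limma (Benjamini-Hochberg over the 1353 transcripts). A transcript is called higher or lower where that adjusted p is below 0.05. A gene named without a transcript number stands, where a test is given, for its first-numbered transcript in the annotation, and for the next-numbered one in the case of Prf1, Ctsc, Tyrobp, Ighd, Ighm, Ighg2c, Trac, Dusp1 and Fosb. Genome positions are those of the gene in GRCm38 (mm10) from GENCODE M21. TPM values keep no sequencing depth, so the depth behind a value is unknown, and the number of libraries, 3 per cell type, limits the precision.

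The NK libraries resembled each other more closely than they did the other cell types. Pearson's r over the 1353 tested transcripts, on the log2(TPM + 1) scale, lay between 0.948 and 0.975 within NK cells, between 0.840 and 0.914 with T cells and between 0.788 and 0.848 with B cells, as a description across transcripts that share libraries. The defining NK markers were present: the TPM of 10 marker genes summed to 105, 293 and 261 in NK cells, 2.55 to 3.14 in B cells and 7.41 to 20.9 in T cells, and each of the 10 was higher in every NK library than in all 6 others. The 7 T cell markers summed to 1.32 to 3.71 TPM in NK cells and to 38.8 to 117 TPM in T cells. The 7 B cell markers did not vanish, at 449 to 816 TPM in NK cells against 1360 to 2094 TPM in B cells and 38.3 to 280 TPM in T cells. Protein-coding RNA made up 1.49, 2.49 and 2.96% of the TPM in the NK libraries, and NK library 1 was the lowest of the 3 for many of the mRNAs described here.

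Of the 1353 transcripts, 247 (18.3%) were higher and 175 (12.9%) lower in NK cells than in the mean of B and T cells. The split depended on the scaling: after quantile normalization of the 9 libraries 186 (13.7%) were higher and 215 (15.9%) lower. The median fold change over all tested transcripts was 0.11 on the log2 scale, and 0.32 over the protein-coding ones, so that values near these mark no shift relative to the rest. Against B cells alone, 330 (24.4%) were higher and 261 (19.3%) lower, and against T cells alone 268 (19.8%) were higher and 205 (15.2%) lower. NK and T libraries of the same replicate number deviated together, although no label pairs them. A fit of these 6 libraries with that number as a block, called the paired fit below, was added after the data were seen. In it 446 (33.0%) were higher and 263 (19.4%) lower against T cells. In the fit of all 9 libraries, 103 transcripts (7.61%) were higher against each of B and T cells, 74 of them protein-coding. In the same fit 42 (3.10%) were lower against each, 33 of them rRNA. Many of the latter repeat the same values, and the 42 hold 11 distinct transcripts, 2 of them rRNA. Of the 247 higher transcripts, 100 exceeded 10 TPM in NK libraries alone and so passed the filter through the group in which they were high. In 144 transcripts (10.6%) every NK library lay above all 6 others, and in 55 (4.07%) every NK library lay below. The comparisons with B, with T and with their mean share the NK libraries. In bulk samples such as these, fewer cells of a type and less RNA per cell cannot be told apart.

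**Figure D1:**
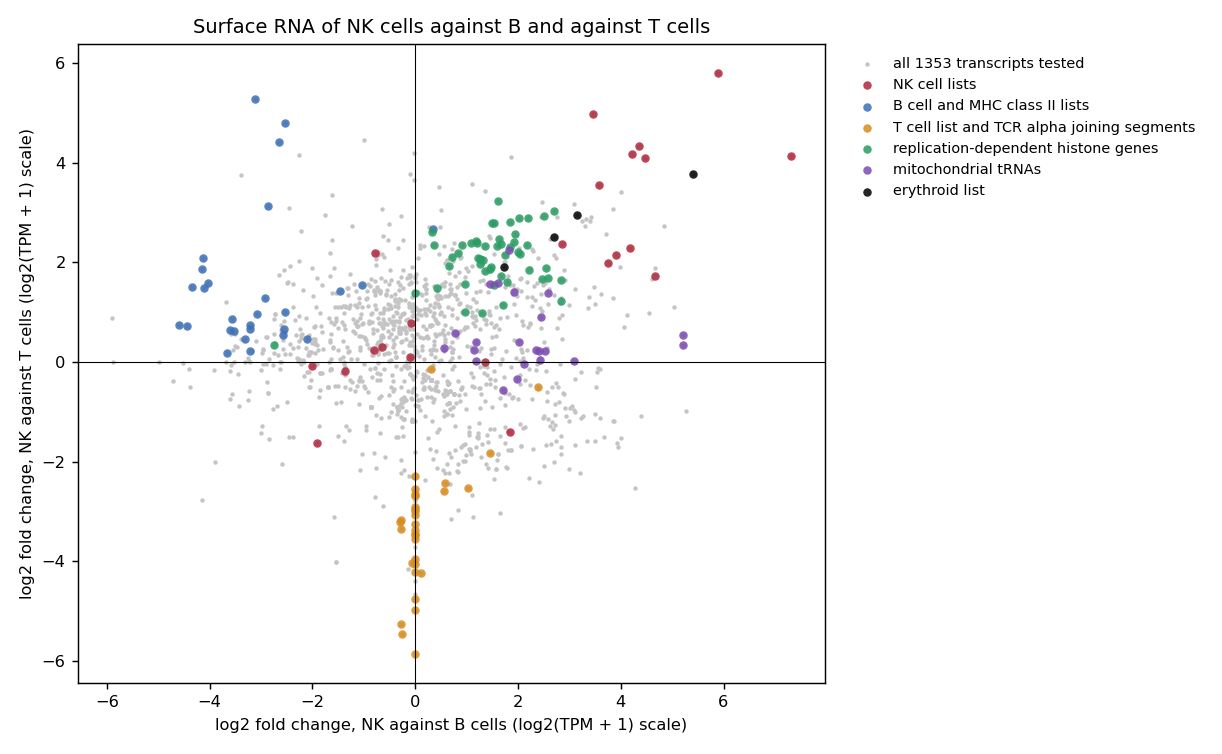
Log2 fold change of each of the 1353 tested transcripts in NK cells against B cells (horizontal axis) and against T cells (vertical axis), both on the log2(TPM + 1) scale, 3 libraries per cell type; colours mark gene lists, and grey points are all tested transcripts. NK list transcripts and the replication-dependent histone genes lie mostly at upper right, B cell and MHC class II transcripts at the left and upper left, T cell receptor alpha joining segments at the bottom near 0 against B cells, and mitochondrial tRNAs at the right.

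Transcripts of the NK effector program stood out in the AMOUR libraries of NK cells. The 6 lists with 108 genes in all (killing, chemokines, receptors, signalling, transcription factors, migration) had 22 members above 10 TPM, of which 12 were higher, 2 lower and 8 not called against the mean of B and T cells, with a median log2 fold change of 2.74 beside 0.11 over all tested transcripts. The same 12 were higher against B cells and against T cells taken singly, and in all 12 the lowest NK library exceeded the highest of the other 6. The 22 are the members abundant enough to be tested, not all members, and 11 of the 12 that were higher, all but Ccl5, passed the filter through the NK libraries alone, so these counts and the median are a description and favour a rise. Summed over each gene's transcripts and without a filter, 65 of the 108 genes were higher in every NK library than in all 6 others, beside 10.1% of the 33541 genes with any signal.

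Gzma encodes granzyme A, a serine protease of the killing granule (chr13:113093825-113100981, minus strand). It stood at 29.5, 85.2 and 79.4 TPM in NK cells, at 0.0155, 0 and 0 TPM in B cells and at 0.0112, 0.118 and 0.0737 TPM in T cells. Each NK library thus lay far above all 6 others, with a log2 fold change of 5.85 and an SE of 0.38 (limma, adjusted p = 6.04e-06). Prf1, which encodes perforin (chr10:61297833-61304680, plus strand), had 2.39, 11.4 and 9.13 TPM in NK cells, and no other library exceeded 0.750 TPM (log2 fold change 2.61, limma adjusted p = 0.00151). Nkg7, which encodes a membrane protein of cytotoxic granules, also had signal in T cells. Nkg7 was at 11.7, 38.7 and 36.0 TPM in NK cells and at 4.31, 9.87 and 7.99 TPM in T cells, while B cells held 0.139, 0 and 0 TPM. The NK libraries were still above all T cell libraries, with a log2 difference of 1.72 from T cells (limma adjusted p = 0.0177) and of 4.67 from B cells. Gzmb and Ifng, the genes of granzyme B and interferon gamma, passed no filter, yet their summed transcripts were at 1.90 to 7.25 TPM and 2.06 to 5.10 TPM in NK cells and at or below 0.145 TPM in each of the other libraries.

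Other granule genes were not called higher on NK cells. Srgn, which encodes the granule proteoglycan serglycin, stood at 5.61, 10.9 and 10.2 TPM in NK cells, 15.9, 7.79 and 6.02 TPM in B cells and 2.35, 7.69 and 4.85 TPM in T cells, so the groups overlapped (log2 fold change 0.35, limma adjusted p = 0.591). Ctsc, which encodes the granzyme-activating protease cathepsin C, was called lower (log2 fold change -1.05, limma adjusted p = 0.0398). It lay between 4.37 and 10.04 TPM in B cells and between 0.773 and 1.46 TPM in both NK and T cells, and the call was lost when the transcripts of the gene were summed (adjusted p = 0.361) and when NK library 2 or 3 was left out (adjusted p = 0.121 and 0.14).

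All 3 tested chemokine RNAs were higher on NK cells, and Ccl5 was the most abundant of the 22 NK list transcripts there. Ccl5, a chemokine that recruits T cells and monocytes (chr11:83525778-83530518, minus strand), reached 134, 307 and 293 TPM in NK cells, with 6.54, 17.8 and 15.01 TPM in T cells and 0.753, 0.317 and 0.327 TPM in B cells. The 3 cell types formed separate ranges, and the log2 difference was 7.31 from B cells and 4.13 from T cells (limma adjusted p = 3.16e-06 and 8.81e-05). Ccl4 was at 9.54, 31.0 and 35.6 TPM in NK cells and no higher than 0.526 TPM elsewhere (log2 fold change 4.28, limma adjusted p = 5.73e-05). Ccl3, whose product like that of Ccl4 is a macrophage inflammatory protein, was at 3.11, 19.6 and 20.1 TPM against at most 0.0725 TPM (log2 fold change 3.56, limma adjusted p = 0.000565). NK library 1 was the lowest of the 3 NK libraries for each chemokine. The fourth gene of the list, Xcl1, whose product attracts cross-presenting dendritic cells, passed no filter, with summed transcripts of 3.85 to 5.36 TPM in NK cells and at most 0.548 TPM in the others.

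Among receptors, 3 of 43 genes passed the filter and all 3 were higher. Ncr1 encodes NKp46, an activating receptor that marks NK cells across mammals (chr7:4337724-4345164, plus strand). Ncr1 had 10.1, 30.4 and 23.4 TPM in NK cells, while no B or T cell library exceeded 0.00949 TPM, so that the log2 fold change came to 4.34 with an SE of 0.38 (adjusted p = 2.72e-05 by limma). Il2rb, the chain through which NK cells receive IL-2 and IL-15, had 8.20, 27.04 and 26.6 TPM, with 1.498, 4.10 and 3.80 TPM in T cells and at most 0.0890 TPM in B cells (log2 fold change 3.23, limma adjusted p = 0.000464). Cd7, a membrane glycoprotein of NK and T cells, followed with 7.10, 19.0 and 18.1 TPM in NK cells, 1.43, 3.75 and 3.24 TPM in T cells and at most 0.137 TPM in B cells. The T cell libraries thus lay between the other groups for Il2rb and Cd7 but not for Ncr1.

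The lectin-like receptors encoded in the NK gene complex stayed under 10 TPM per transcript and were read from gene sums, with no test. Klrb1c, the gene of the NK1.1 antigen, stood at 5.68, 17.2 and 18.9 TPM in NK cells and at most 0.217 TPM elsewhere. Klrk1, which encodes NKG2D, had 5.18, 12.7 and 10.7 TPM against at most 0.209 TPM, and Klra8, which encodes the virus-recognising receptor Ly49H, had 3.26, 9.29 and 7.06 TPM against at most 0.0112 TPM. Klre1 (4.31, 13.2 and 12.1 TPM) and Klrc2 (4.24, 16.6 and 14.6 TPM) were of like abundance. Klrd1, the gene of CD94, was the member with most signal in T cells, at 1.41, 5.98 and 3.37 TPM beside 6.28, 12.2 and 10.8 TPM in NK cells. In all, 36 of the 43 receptor genes were above every B and T cell library in every NK library. Cd27, Cd226 and Lag3 were among the 7 that were not, with Cd27 at 3.13, 9.45 and 6.92 TPM in T cells and 1.17, 3.66 and 3.32 TPM in NK cells. Ly49 and NKR-P1 genes are near-identical copies of each other, so the division of reads among them is uncertain.

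Of 3 tested adaptors that carry the signal of activating receptors, 2 were higher. Tyrobp, the gene of DAP12, had 17.6, 45.7 and 41.2 TPM in NK cells, 2.23, 2.15 and 1.73 TPM in B cells and 0.161, 0 and 0 TPM in T cells (log2 fold change 4.22, SE 0.37, limma adjusted p = 2.72e-05). Fcer1g, the gene of the Fc receptor gamma chain with which NKp46 and CD16 pair, had 12.9, 29.1 and 22.8 TPM and at most 0.383 TPM in any other library (log2 fold change 4.20, SE 0.35, limma adjusted p = 2.72e-05). Hcst, which encodes DAP10, the partner of NKG2D, did not separate NK from T cells: it was at 6.00, 14.4 and 14.9 TPM in NK cells and 7.56, 14.0 and 12.3 TPM in T cells, and only the log2 difference of 1.35 from B cells passed the test (limma adjusted p = 0.0248). Tyrobp and Hcst are neighbours on chromosome 7 (chr7:30413760-30417585, plus strand, and chr7:30417712-30419854, minus strand).

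Of the transcription factors, 1 of 5 tested was called against the mean. Id2, an inhibitor of E proteins that NK cells need to develop, had 15.5, 27.8 and 26.1 TPM in NK cells, 3.25, 5.37 and 4.43 TPM in T cells and 0.771, 0.351 and 0.580 TPM in B cells, with no overlap (log2 fold change 3.03, SE 0.33, limma adjusted p = 0.000146). Tcf7, the gene of TCF-1, was intermediate, lower than in T cells (log2 difference -1.40, limma adjusted p = 0.0456) and higher than in B cells (1.84, limma adjusted p = 0.0113). Eomes and Tbx21, the T-box factors of NK maturation, stayed below the filter, with gene sums of 2.38 to 6.52 TPM for Eomes in NK cells against at most 0.928 TPM in T cells.

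Of 3 tested migration receptors 1 was lower and none higher. S1pr1, the sphingosine-1-phosphate receptor by which B and T cells leave lymphoid organs, was at 1.03, 2.52 and 1.64 TPM in NK cells, 12.8, 9.39 and 6.08 TPM in B cells and 3.75, 12.6 and 7.73 TPM in T cells. Each NK library lay below all 6 others, and S1pr1 was lower against the mean (log2 fold change -1.77, SE 0.41, limma adjusted p = 0.00877), against B cells and against T cells. S1pr5, the related receptor used by NK cells, was the opposite, with gene sums of 1.66, 4.53 and 3.93 TPM in NK cells and at most 0.0188 TPM in any other library, but passed no filter and was not tested.

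**Figure D2:**
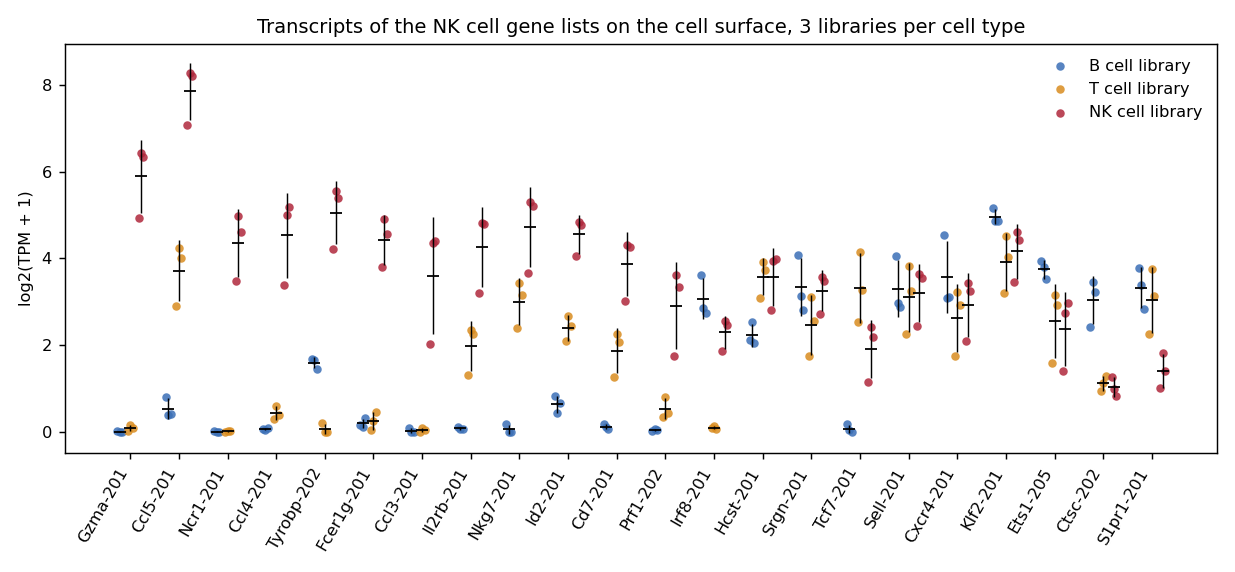
log2(TPM + 1) of the 22 tested transcripts of the 6 NK gene lists, ordered by fold change; coloured points are the libraries, 3 per cell type, and black bars are the mean and SD. From Gzma at the left (29.5 to 85.2 TPM in NK cells) the NK points lie above all others in 12 transcripts, and at the right S1pr1 shows the NK points below all others.

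As a share of protein-coding RNA alone, which removes the differences in rRNA and small RNA between libraries, 144 of 485 transcripts (29.7%) were higher and 146 (30.1%) lower in NK cells. The NK lists gave 13 higher and 4 lower of 22. Per 1000000 protein-coding TPM, Gzma stood at 1978, 3419 and 2683 in NK cells and at most 7.81 elsewhere, a narrower relative spread between NK libraries than on the TPM scale. The 80 ribosomal protein genes changed most with the scale: of 74 tested, 1 was higher and none lower against the mean on the TPM scale, whereas of 72 tested as a share of protein-coding RNA 1 was higher and 37 lower (limma), with a median log2 fold change of -0.39 beside -0.10 over all 485. Their summed share was 142600 per 1000000 on average in NK cells (SD 4350, n = 3), 195900 (SD 8665, n = 3) in B cells and 262900 (SD 15330, n = 3) in T cells.

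A lncRNA and an interferon-stimulated gene outside the NK lists differed in opposite directions. AW112010, a lncRNA gene known from inflamed lymphocytes and macrophages, had 18.0, 34.0 and 34.3 TPM in NK cells for its transcript AW112010-206, with 2.19, 4.63 and 3.54 TPM in T cells, and was listed at 0 in all B cell libraries (log2 difference from T cells 2.72, limma adjusted p = 0.000626). Ifi27l2a, an interferon-stimulated gene, was the reverse: it stood at 1.011, 0.999 and 1.68 TPM in NK cells, 28.8, 29.7 and 38.0 TPM in B cells and 4.83, 8.72 and 11.5 TPM in T cells (log2 fold change -2.96, SE 0.34, limma adjusted p = 0.000191). Its NK libraries were below all T cell libraries and these below all B cell libraries. It was the member of the interferon list, of 13 genes, that passed the filter. Lgals1, which encodes the glycan-binding protein galectin-1, and Ifngr1, a chain of the interferon gamma receptor, were chosen after their values were seen. Lgals1 was at 7.60, 16.3 and 13.9 TPM in NK cells and did not exceed 3.49 TPM elsewhere (log2 fold change 2.37, limma adjusted p = 0.00104), and Ifngr1 at 3.96, 9.60 and 10.1 TPM against at most 2.17 TPM (log2 fold change 1.77, limma adjusted p = 0.00638).

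B cell messages were low but not absent on NK cells, and T cell messages ranged from nearly absent to about as high as on T cells. Of 20 tested B cell list transcripts, 15 were lower and none higher against the mean, 18 were lower against B cells, and 5 were higher against T cells (16 in the paired fit). Among all transcripts 12.9% were lower against the mean, 19.3% lower against B cells and 19.8% higher against T cells (33.0% in the paired fit). The 5 thus stood near the background. Among the 485 protein-coding transcripts 169 were higher against T cells, and 291 in the paired fit. Of the 20, 16 passed the filter through B cell libraries alone. Fcmr, from the gene of the IgM Fc receptor, fell from 45.9, 33.8 and 28.9 TPM in B cells to 0.302, 1.13 and 0.728 TPM in NK cells (log2 difference -4.44, limma adjusted p = 1.21e-05), and Ighd, the heavy chain of IgD, from 61.0, 47.2 and 37.0 TPM to 0.515, 1.37 and 1.21 TPM (-4.60, limma adjusted p = 1.17e-05). Of 7 tested T cell list transcripts, 3 were lower against the mean and 5 against T cells, beside 12.9% and 15.2% of all transcripts. Of the 7, 6 passed the filter through T cell libraries alone. Cd8b1, the CD8 beta chain, stood at 8.68, 24.9 and 17.2 TPM in T cells and at 0, 0.0357 and 0 TPM in NK cells. Trac, the constant part of the T cell receptor alpha chain, stood at 12.2, 35.7 and 23.5 TPM in T cells and at 0, 0.436 and 0.227 TPM in NK cells. Other members were not so low. By gene sums Trbc1, a constant part of the beta chain, was at 3.60, 11.5 and 11.1 TPM in NK cells and 4.21, 16.35 and 11.9 TPM in T cells. Ccr7, a lymph node homing receptor, was at 9.33, 9.24 and 7.54 TPM in NK cells and 4.63, 15.9 and 11.6 TPM in T cells, so both overlapped. Thy1, a surface glycoprotein of T cells, lay between 2.16 and 3.54 TPM in NK cells and between 6.10 and 16.3 TPM in T cells.

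MHC class II RNA, which encodes the molecules that present peptides to CD4 T cells, took a middle position. All 8 tested members were lower than in B cells and 6 were higher than in T cells (8 in the paired fit). Among all transcripts 19.3% were lower than in B cells and 19.8% higher than in T cells (33.0% in the paired fit). Of the 8, 4 passed the filter through B cell libraries alone, so the counts against B cells are a description. Cd74, from the gene of the invariant chain, was at 53.8, 61.6 and 63.8 TPM in NK cells, between 618, 518 and 449 TPM in B cells and 0.129, 0.629 and 1.06 TPM in T cells (log2 difference -3.12 from B cells and 5.28 from T cells, limma adjusted p = 4.75e-05 and 6.64e-06). H2-Aa followed the same order at 28.5, 31.6 and 33.6 TPM in NK cells, 228, 191 and 148 TPM in B cells and at most 0.188 TPM in T cells. Against the mean, 3 of the 8 were higher and 3 lower, and the calls of the 3 that were higher, Cd74, H2-Aa and H2-Ab1, were lost when NK library 2 was left out (limma adjusted p = 0.0834, 0.0597 and 0.157) or NK library 3 (limma adjusted p = 0.0816, 0.0629 and 0.122). The split also moved with the setting: 4 were higher and 1 lower with a pseudocount of 0.1, and 0 and 4 with 5. After quantile normalization 1 was higher and 4 lower. This mean averages B and T values on the log2 scale, so a rise against it is not a rise above B cells.

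Immunoglobulin RNA of switched classes was higher in NK cells than in the mean of B and T cells. The genes of this group, joined with Jchain as a plasma cell list, were chosen after values were seen, and 4 of 6 tested were higher and 1 lower against the mean. Among all transcripts 18.3% were higher and 12.9% lower. Of the 6, 3 passed the filter through NK libraries alone and 1 through B cell libraries alone, so these counts are a description. Ighg2c, a heavy chain of the IgG class, stood at 33.1, 26.7 and 13.2 TPM in NK cells, 1.45, 0.147 and 0.141 TPM in B cells and 0.380, 1.25 and 2.53 TPM in T cells, without overlap (log2 fold change 3.71, SE 0.44, limma adjusted p = 0.000235). Igha, the heavy chain of IgA, was led by NK library 3: it had 5.10, 8.75 and 58.6 TPM in NK cells and at most 3.41 TPM elsewhere (log2 fold change 3.02, SE 0.68, limma adjusted p = 0.0076). Without that library its fold change fell to 2.04 and the call held (limma adjusted p = 0.0363). Jchain, whose product links the chains of secreted IgM and IgA, had 12.2, 16.1 and 27.1 TPM in NK cells and at most 10.8 TPM in the others (log2 fold change 2.06, limma adjusted p = 0.0122, and 0.0648 without NK library 3). Igkc, the kappa light chain constant region, overlapped between NK cells (232, 308 and 413 TPM) and B cells (409, 223 and 159 TPM), and the difference of 0.34 on the log2 scale did not pass the test (limma adjusted p = 0.706). Ighm, the heavy chain of IgM, depended on the transcript. The tested one stood at 10.5, 16.8 and 14.4 TPM in NK cells beside 320, 296 and 270 TPM in B cells, whereas summed over its transcripts Ighm had 90.5, 211 and 254 TPM in NK cells and 402, 330 and 304 TPM in B cells. Its fold change against the mean was -1.42 for the transcript (limma adjusted p = 0.0122) and 0.48 for the sum (limma adjusted p = 0.565). The part of plasma cell RNA in these results was not tested.

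Red cell and some myeloid messages also moved with the NK libraries. All 4 tested members of the erythroid list, each above 10 TPM in NK libraries alone, were higher against the mean, and by gene sums 16 of the 22 listed were above all 6 others. Car1-203, a carbonic anhydrase transcript of erythroid cells, had 30.8, 37.4 and 60.6 TPM in NK cells, 0.599, 1.83 and 5.47 TPM in T cells and values near 0 in B cells (log2 fold change 4.59, SE 0.44, limma adjusted p = 5.34e-05). Globin was led by a single library: Hba-a2 had 36.2, 6.17 and 13.7 TPM in NK cells and at most 4.87 TPM elsewhere (log2 fold change 2.60, SE 0.60, limma adjusted p = 0.00868), and Hba-a1 and Hba-a2 are near-identical copies. Hbb-bs, a beta globin gene, had 19.2, 2.55 and 6.11 TPM in NK cells and at most 5.67 TPM elsewhere, and its call was lost without NK library 1 (log2 fold change 1.15, limma adjusted p = 0.211) or 3 (adjusted p = 0.101). After quantile normalization 2 of the 4 were called. Aqp1, the water channel of red cells, chosen after its values were seen, had 4.28, 8.95 and 16.6 TPM in NK cells, with 0.989 TPM as the highest value elsewhere. The erythroid regulators Klf1 (2.07, 3.07 and 5.42 TPM) and Gata1 (1.04, 1.51 and 3.21 TPM) were present at low gene sums, with at most 0.483 TPM in any B or T cell library. The neutrophil list (10 genes), the dendritic cell list (6 genes) and the platelet list (9 genes) had no tested member, but 9, 6 and 8 of their genes, respectively, were above all 6 others in every NK library. S100a8 and S100a9, the calprotectin genes of neutrophils, were at 7.64 to 9.36 TPM and 6.97 to 9.57 TPM in NK cells and at most 0.210 TPM elsewhere. Pf4 and Ppbp, of platelets, summed to 2.48 to 4.75 TPM against at most 0.235 TPM, and Flt3 and Siglech, of dendritic cells and their precursors, to 0.902 to 1.05 TPM against at most 0.177 TPM. The monocyte and macrophage list went less one way, with 8 of 17 genes above all 6 others. By gene sums its member Ctss, the protease cathepsin S, was at 2.88, 2.92 and 2.86 TPM in NK cells beside 13.0 to 16.8 TPM in B cells, and Ly6c2, also found on lymphocytes, was at 4.46 to 11.9 TPM in NK cells, overlapping with 6.41 to 15.9 TPM in T cells. Mmp8, a neutrophil collagenase, was listed at 0 in all NK libraries. The part of these cells in the results was not tested.

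**Figure D3:**
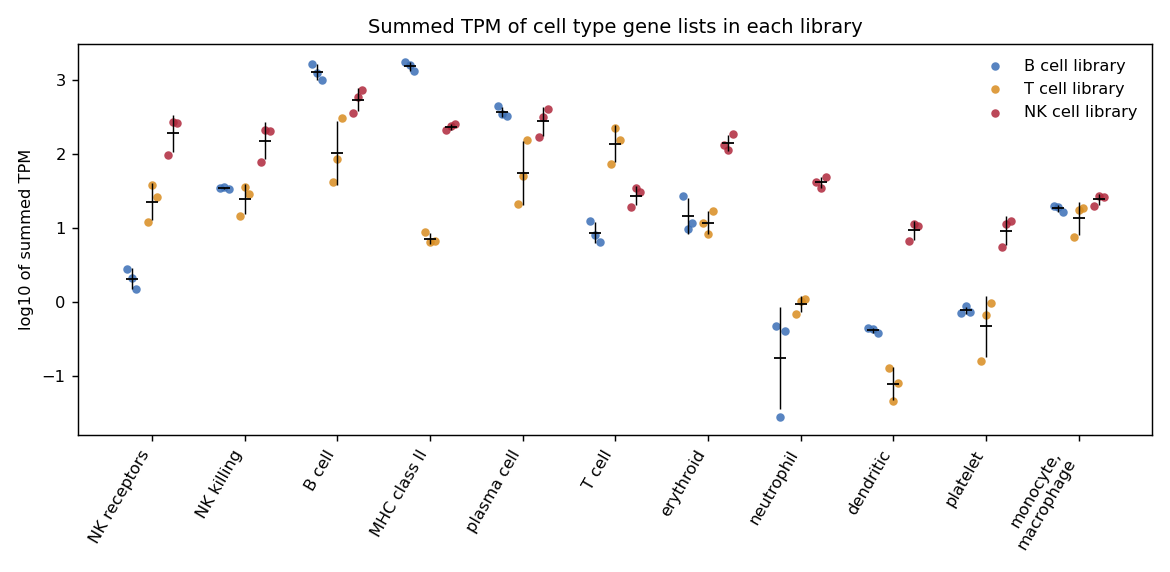
Log10 of the summed TPM of 11 cell type gene lists in each library; coloured points are libraries, 3 per cell type, and black bars are the mean and SD of the log values. The NK libraries are highest for NK receptors and killing genes, between B and T cells for the B cell and MHC class II lists, and above both for the erythroid (111 to 186 TPM), neutrophil (34.8 to 48.5 TPM), dendritic (6.60 to 11.1 TPM) and platelet lists.

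A further pair of genes that several cell types use followed the same libraries. The metal-binding metallothionein genes Mt1 and Mt2, chosen after values were seen, were at 13.7, 14.8 and 19.3 TPM and at 6.96, 8.71 and 14.97 TPM in NK cells. The highest values in the others were 2.39 and 0.972 TPM. Their log2 fold changes were 3.46 and 3.17 (limma adjusted p = 0.000109 and 0.00018). Cst3, the cysteine protease inhibitor cystatin C, abundant in dendritic cells and macrophages, had 34.5, 31.5 and 40.6 TPM in NK cells, 10.8, 9.14 and 7.41 TPM in B cells and 0.622, 1.28 and 1.52 TPM in T cells (log2 fold change 2.98, limma adjusted p = 0.000109). Fscn1, the actin-bundling fascin of mature dendritic cells, had 10.6, 7.92 and 6.69 TPM against at most 1.006 TPM (log2 fold change 2.83, limma adjusted p = 0.00018). NK library 1 was the lowest of the NK libraries for Mt1 and Mt2, but the highest for Fscn1.

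Short joining (J) segments of the antigen receptor genes, listed as transcripts of their own, separated the alpha from the beta chain. A J segment is the last coding piece of a variable region and is joined upstream to a V segment (and in the beta chain a D segment) in a rearranged gene. Those printed here were chosen because they carry the contrast, in the 5′ to 3′ direction from GRCm38, with capitals marking the run TTNGGNNNNGGN, the code for the Phe-Gly-X-Gly motif, searched on the coding strand and found in 57 of the 70 segments annotated as T cell receptor J genes (81.4%).
Trbj1-1 (chr6:41533864-41533911, plus strand): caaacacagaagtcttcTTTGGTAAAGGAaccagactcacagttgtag
Trbj1-2 (chr6:41534001-41534048, plus strand): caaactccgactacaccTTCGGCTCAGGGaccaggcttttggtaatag
Trbj1-5 (chr6:41535084-41535133, plus strand): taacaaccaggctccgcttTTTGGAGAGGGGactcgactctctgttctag
Trbj2-7 (chr6:41543810-41543856, plus strand): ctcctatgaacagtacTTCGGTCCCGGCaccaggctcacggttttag
Traj21 (chr14:54198790-54198846, plus strand): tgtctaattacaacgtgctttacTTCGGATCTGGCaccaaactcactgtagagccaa

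Alpha J segments were a T cell feature. Of 25 tested, all 25 were lower in NK than in T cells and 18 were lower against the mean, and 23 of them were listed at 0 in every NK library. Each of the 25 passed the filter through T cell libraries alone, so that these counts follow from the filter and are a description. Traj21 stood at 31.7, 93.0 and 62.1 TPM in T cells and was listed at 0 in all NK and all B cell libraries. Over all 53 alpha J segments the summed TPM was 239, 795 and 507 in T cells and 2.40, 9.37 and 2.51 in NK cells. Beta J segments overlapped between NK and T cells, with sums of 49.5, 176 and 100.0 TPM in NK cells and 98.3, 236 and 122 TPM in T cells, and all 10 tested were listed at 0 in every B cell library. The segments were uneven. Trbj1-1 was at 15.7, 61.9 and 32.3 TPM in NK cells and 20.6, 19.9 and 6.74 TPM in T cells, and Trbj1-2 at 15.7, 25.5 and 32.3 TPM beside 1.47, 19.9 and 8.09 TPM. The NK and T ranges overlapped for both, and the log2 differences from T cells, 1.11 and 1.66, did not pass the test (limma adjusted p = 0.135 and 0.0645). Trbj2-7, in the second cluster of segments, was at 14.7, 45.3 and 21.1 TPM in T cells and listed at 0 in all NK libraries. Of the 10, 3 were higher against the mean (Trbj1-1, Trbj1-2 and Trbj1-5) and 3 lower (Trbj2-1, Trbj2-6 and Trbj2-7). The call of Trbj1-5 was lost without NK library 2 (limma adjusted p = 0.0876). Trdj1, a delta chain segment chosen after its values were seen, was listed at 0 in all B and T cell libraries and had 0, 15.2 and 5.83 TPM in NK cells, with a call against the mean (limma adjusted p = 0.0253) that was lost without NK library 2 (0.145) or 3 (0.103). These lists were chosen with values known, so the counts are a description.

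Nearly all replication-dependent histone messages, which are made in S phase and end in a stem-loop in place of a poly(A) tail, were higher on NK cells. This list too was chosen after values were seen. Of 51 tested transcripts 49 were higher against the mean, where 18.3% of all transcripts were, 39 were higher against B cells and 48 against T cells, and 37 against each of the pair. Among the 485 protein-coding transcripts 126 were higher against the mean, 102 against B cells and 169 against T cells. Of the 51, 19 passed the filter through NK libraries alone. The log2 fold changes of the 49 spanned 0.96 to 2.87, and in 43 every NK library exceeded all 6 others. Without each single library in turn, 35 to 48 of the 51 were higher. H2ac4, which encodes an H2A protein in the large histone cluster (chr13:23751126-23751598, plus strand), had 59.2, 56.2 and 72.4 TPM in NK cells, 13.1, 6.11 and 8.18 TPM in B cells and 3.68, 7.13 and 11.1 TPM in T cells, the largest fold change of the group (2.87, SE 0.38, limma adjusted p = 0.000464). H2ac24 (87.5, 74.2 and 140 TPM in NK cells, at most 22.2 TPM elsewhere) and H4c6 (76.2, 76.0 and 116 TPM, at most 38.0 TPM elsewhere) were also without overlap. The 2 that were not called were H1f2, a linker histone (log2 fold change 0.69, limma adjusted p = 0.188), and H2bc1, a testis histone present in B cell libraries 2 and 3 (13.0 and 27.7 TPM) and listed at 0 in NK libraries 1 and 2. Histone copies of a class are near-identical, so the single values are uncertain, but the sum of all 65 genes was 1592, 1907 and 2879 TPM in NK cells, 647 to 863 TPM in B cells and 298 to 611 TPM in T cells. As a share of protein-coding RNA 48 of the 51 were higher. Beside them, 2 of 3 tested genes of a list of 12 other proliferation genes were higher, and 10 of the 12 were above all 6 others by gene sums. Values of the erythroid list moved with the same libraries, and its part in the histone result was not tested.

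**Figure D4:**
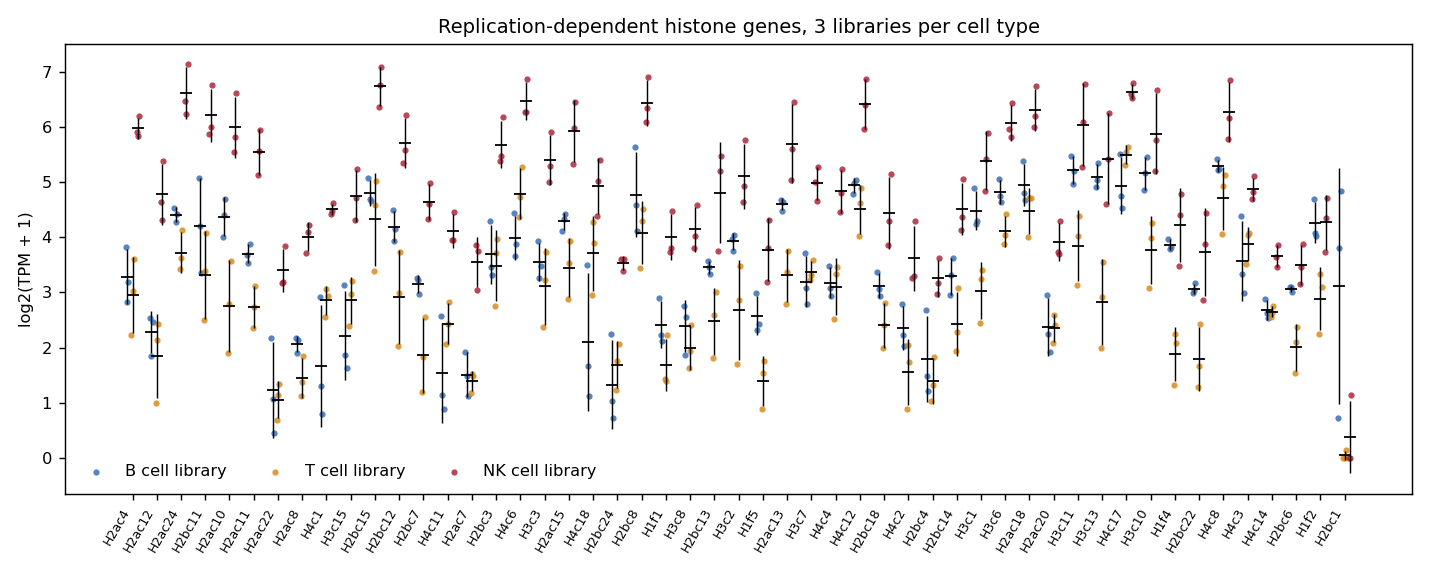
log2(TPM + 1) of the 51 tested replication-dependent histone genes, ordered by fold change from H2ac4 at the left (2.87) to H2bc1 at the right (-1.20); coloured points are libraries, 3 per cell type, and black bars are the mean and SD. NK points lie above B and T points in 43 of the 51 genes.

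Immediate early genes, which are transcribed within minutes of a stimulus or of handling, were in part higher. Of 11 tested, 7 were called higher against the mean, 9 against T cells and 4 against B cells. Of all transcripts 18.3%, 19.8% and 24.4% were higher, respectively, and of the 485 protein-coding ones 126, 169 and 102. Nr4a1, an orphan nuclear receptor induced by receptor signals, had 4.32, 10.5 and 13.6 TPM in NK cells and at most 2.93 TPM elsewhere (log2 fold change 2.15, SE 0.43, limma adjusted p = 0.00373). For the phosphatase gene Dusp1 and the AP-1 genes Fosb, Junb and Jun, B cell library 1 overlapped the NK range: Jun stood at 6.27, 15.5 and 18.1 TPM in NK cells, 10.7, 2.38 and 1.80 TPM in B cells and 1.51, 3.49 and 3.46 TPM in T cells. Without NK library 2 or 3, 1 of the 11 was called, while the median log2 fold change of 1.48 became 1.27 and 1.28, and after quantile normalization 4 were called. Nr4a1 was the call that held without either library. Of the 11, 5 passed the filter through NK libraries alone.

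Mitochondrial tRNAs were higher on NK than on B cells, whereas against T cells their share of calls was near that of all transcripts. These tRNAs translate the mRNAs of the organelle, are cut out of long transcripts of both strands of the mitochondrial genome, and number 22. All 22 passed the filter, and 15 were higher and none lower against the mean, 19 against B cells and 5 against T cells, where 19.8% of all transcripts were higher. The 15 became 9 without NK library 2 and 10 without NK library 3, with medians of 1.34 and 1.30 on the log2 scale beside 1.30 with all libraries. Shown are 2 with the largest difference from B cells (mt-Ti for isoleucine, mt-Td for aspartate) and 2 that exceeded both cell types (mt-Ts1 for serine, mt-Tt for threonine), as RNA-like strand of GRCm38 chromosome M with the anticodon in capitals.
mt-Ti (chrM:3706-3774, plus strand): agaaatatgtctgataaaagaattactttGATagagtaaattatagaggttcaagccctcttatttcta
mt-Td (chrM:6942-7011, plus strand): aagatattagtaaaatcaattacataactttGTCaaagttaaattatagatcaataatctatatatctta
mt-Ts1 (chrM:6870-6938, minus strand): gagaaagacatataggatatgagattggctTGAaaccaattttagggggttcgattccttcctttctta
mt-Tt (chrM:15289-15355, plus strand): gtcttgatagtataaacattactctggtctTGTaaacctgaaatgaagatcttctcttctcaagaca

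mt-Ti stood at 4322, 3497 and 3300 TPM in NK cells, 3436, 3677 and 1254 TPM in T cells and 161, 129 and 44.9 TPM in B cells. The NK and T ranges overlapped, whereas B cells were far below, with a log2 difference of 5.22 from B cells (limma adjusted p = 2.1e-05) and of 0.55 from T cells (limma adjusted p = 0.399). mt-Td behaved alike, at 1258, 1015 and 1048 TPM in NK cells, 1134, 1144 and 515 TPM in T cells and 85.3, 23.5 and 11.3 TPM in B cells. mt-Ts1, next to mt-Td but on the other strand, was at 1009, 1013 and 943 TPM in NK cells, 274, 295 and 269 TPM in B cells and 247, 342 and 104 TPM in T cells, so that NK cells were above both (log2 fold change 2.04, SE 0.34, limma adjusted p = 0.0017). mt-Tt was at 2742, 3799 and 3981 TPM in NK cells, with no more than 1746 TPM in the others (log2 fold change 1.60, SE 0.31, limma adjusted p = 0.00364). The other 3 that were higher against each of B and T cells, named after their values were seen, were mt-Tf, mt-Tl2 and mt-Ty, with log2 fold changes of 1.99, 1.66 and 1.51 (limma adjusted p = 0.00236, 0.0115 and 0.0116, and 0.0597 for mt-Ty without NK library 2). As a class the 22 made up 6.97, 6.47 and 6.52% of the TPM in NK cells, 6.88, 7.43 and 3.84% in T cells and 2.75, 1.59 and 1.28% in B cells.

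**Figure D5:**
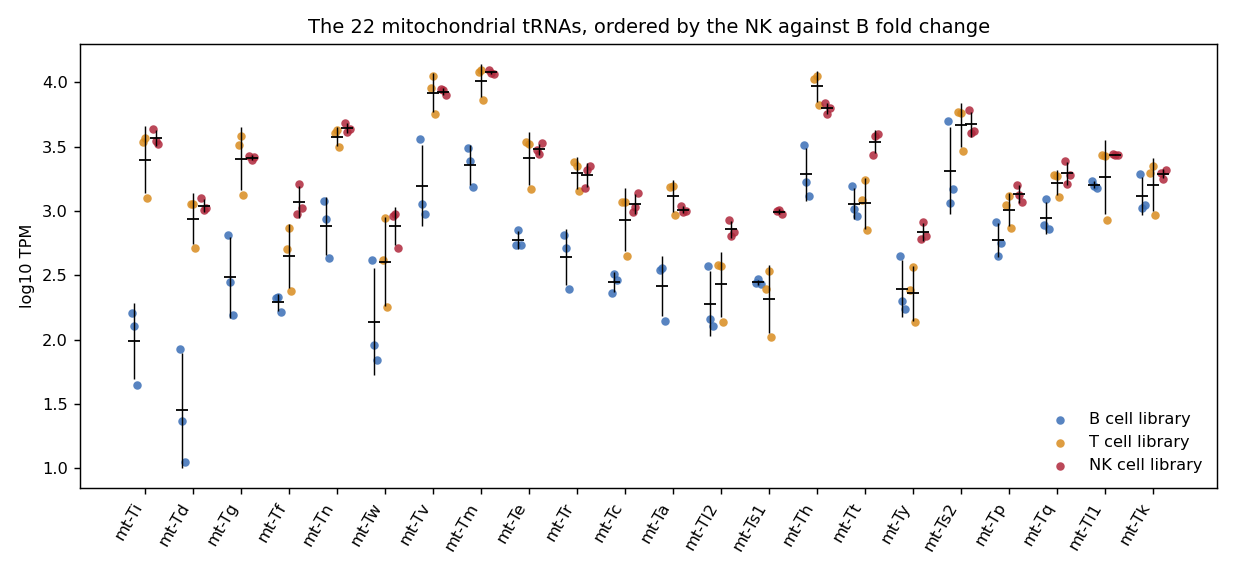
Log10 TPM of the 22 mitochondrial tRNAs, ordered by the fold change of NK against B cells from mt-Ti at the left (5.22 on the log2 scale); coloured points are libraries, 3 per cell type, and black bars are the mean and SD. At the left NK and T points lie together above B points, and for mt-Ts1 and mt-Tt the NK points lie above both.

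Longer mitochondrial RNAs were higher than in B cells. All 12 tested mitochondrial mRNAs were higher against B cells, and 9 against the mean. Against T cells none was higher, or 4 in the paired fit, near the 33.0% of all transcripts higher there. mt-Co2, a subunit of cytochrome c oxidase, had 181, 278 and 237 TPM in NK cells, 41.9, 134 and 38.3 TPM in T cells and 68.7, 4.75 and 6.46 TPM in B cells (log2 fold change 2.95, SE 0.70, limma adjusted p = 0.0104). B cell library 1 and T cell library 2 were each the highest of their group. The 9 calls against the mean fell to 1 when NK library 2 or 3 was left out and after quantile normalization. The rRNAs mt-Rnr1 and mt-Rnr2 were called against the mean with log2 fold changes of 2.08 and 1.91 (limma adjusted p = 0.0242 and 0.0124), and both calls were lost without NK library 2 (limma adjusted p = 0.0831 and 0.0594) or 3 (0.0707 and 0.0536), that of mt-Rnr1 also without NK library 1 (0.0592).

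Of 103 tested microRNA transcripts, 23 were higher and 7 lower against the mean, and 6 were higher against each of B and T cells, beside 18.3%, 12.9% and 7.61% of all transcripts, so that microRNAs as a type stood near the background. After quantile normalization 11 were higher. The files list the hairpin precursor, so its arms cannot be told apart. By symbol 55 of the 103 were found among the RefSeq microRNAs of GRCm38.p6, 15 of them among the 30 called. The mature arms of those described are given 5′ to 3′, with the seed (bases 2 to 8), which pairs with target mRNAs, in capitals.
miR-132-3p (chr11:75173723-75173744, plus strand): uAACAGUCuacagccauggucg
miR-212-3p (chr11:75173443-75173464, plus strand): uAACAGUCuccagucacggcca
miR-3109-5p (chr9:69456958-69456981, plus strand): aAUGGAUGcgaugguucccaugcu
miR-23a-3p (chr8:84208563-84208583, plus strand): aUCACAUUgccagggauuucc
miR-27a-3p (chr8:84208727-84208747, plus strand): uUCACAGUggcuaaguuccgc
miR-24-3p (chr8:84208875-84208896, plus strand): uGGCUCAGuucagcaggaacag
let-7i-5p (chr10:122985698-122985719, minus strand): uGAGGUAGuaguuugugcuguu

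Mir132 had 25.1, 18.0 and 17.2 TPM in NK cells and at most 2.35 TPM in any other library, with no overlap (log2 fold change 3.10, SE 0.41, limma adjusted p = 0.000464). miR-132 is known from neurons and from activated immune cells. Its genomic neighbour miR-212 is the other mature microRNA with the seed AACAGUC, and Mir212 was below the filter. Mir3109, of which no role is stated here, had 4.12, 12.6 and 16.9 TPM against at most 0.995 TPM (log2 fold change 3.13, limma adjusted p = 0.000839). The 3 hairpins of the miR-23a cluster, a short unit on chromosome 8 with 3 different seeds, went the same way. Mir24-2 stood at 18.3, 39.3 and 23.2 TPM in NK cells, 9.26, 8.16 and 12.4 TPM in T cells and 2.44, 1.05 and 1.32 TPM in B cells, each group apart (log2 fold change 2.34, limma adjusted p = 0.000954). Mir27a stood at 18.9, 26.4 and 26.1 TPM in NK cells and at most at 11.6 TPM elsewhere (log2 fold change 2.49, limma adjusted p = 0.0044). Mir23a overlapped with T cells, and its call (limma adjusted p = 0.0478) was lost without NK library 2 (0.178) or 3 (0.188) among other settings. Mirlet7i, one of the let-7 hairpins, was listed at 0 in all NK libraries and stood at 1.21, 13.2 and 15.4 TPM in B cells and 3.46, 1.60 and 0.683 TPM in T cells.

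Other small RNAs moved in both directions. Of the list of non-coding RNAs named for cell surfaces, 14 of 16 were tested, with 5 higher and 4 lower against the mean. Among all transcripts 18.3% were higher and 12.9% lower. The 4 count Rn7s1 and Rn7s2, which have the same values, separately. The Y RNAs, partners of the Ro protein, were higher: Rny1 stood at 1283, 1600 and 1606 TPM in NK cells beside 388 to 601 TPM in B cells and 649 to 1316 TPM in T cells, and Rny3 at 1164, 1732 and 1637 TPM beside 275 to 357 TPM in B cells, with NK and T cells overlapping in both. Their log2 fold changes were 1.12 and 1.22 (limma adjusted p = 0.0117 and 0.0131), and both calls were lost without NK library 2 (0.0594 and 0.0691) or 3 (0.0629 and 0.063). Rnu4atac, the U4atac RNA of the minor spliceosome (chr1:118459141-118459265, minus strand), was lower than in either cell type, at 139, 127 and 110 TPM in NK cells, 498, 902 and 610 TPM in B cells and 423, 305 and 347 TPM in T cells (log2 fold change -1.94, SE 0.28, limma adjusted p = 0.000663). Rpph1, the RNA of RNase P, was lower than in B cells (log2 difference -1.36, limma adjusted p = 0.00561), at 168, 162 and 209 TPM beside 472, 472 and 438 TPM. Rn7s1, the 7SL RNA of the signal recognition particle, whose values are the same as those of its copy Rn7s2, fell by 0.68 on the log2 scale against the mean (limma adjusted p = 0.0241, and 0.0969 or 0.083 without NK library 2 or 3).

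Among the snoRNAs, which guide the modification of other RNAs, 27 of 196 were higher and 13 lower against the mean, beside 18.3% and 12.9% of all transcripts, and NK cells lay between the other types: 104 were higher against B cells and 99 lower against T cells. Snora24 (35.2, 25.0 and 33.0 TPM in NK cells, at most 16.9 TPM elsewhere) and Snora73a (49.2, 35.4 and 39.5 TPM, at most 26.5 TPM), named after their values were seen, were the 2 called higher against each of B and T cells. The call of Snora73a against the mean was lost without NK library 1, 2 or 3 (limma adjusted p = 0.0746, 0.0639 and 0.0756). Snord45c was below all others, at 0, 0.656 and 0.196 TPM in NK cells and 1.86 to 15.4 TPM elsewhere, a log2 fold change of -2.34 (limma adjusted p = 0.00272). The 2 transcripts listed as Snora16a are near-identical and were called in opposite directions, while their sum was not called (log2 fold change -0.31, limma adjusted p = 0.666). Of 164 snRNAs 10 were higher and 14 lower, or 10 and 8 of 92 with same-valued transcripts counted once. Of 77 rRNA transcripts 2 were higher and 41 lower, but many share the same values, and counted once per set 2 were higher and 6 lower of 37. The 5S copy n-R5s194 was at 8.38, 19.5 and 14.9 TPM in NK cells and 24.5 to 62.9 TPM elsewhere (log2 fold change -1.49, limma adjusted p = 0.0122, and 0.055 without NK library 1).

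The share of each RNA type in the TPM of a library was compared by an exact two-sided permutation test over the 84 ways to choose 3 of 9 libraries, with a smallest possible p of 0.0238. rRNA made up 40.0, 37.0 and 36.0% in NK cells, 42.8, 58.5 and 64.2% in B cells and 48.8, 43.7 and 53.6% in T cells, below all others (log2 difference -0.45, exact p = 0.0238, adjusted p = 0.175 over 11 types). The microRNA share was 28.4, 34.4 and 34.5% in NK cells, overlapping with B cells (14.9 to 34.5%) and above T cells (11.2 to 15.9%). Most of it lay in 3 transcripts annotated as microRNAs that have the same values as one another and held 25.5, 30.4 and 30.9% of the TPM in NK cells. Without them and rRNA the share was 8.30, 12.2 and 10.7% in NK cells, 11.8, 16.6 and 16.9% in B cells and 3.48 to 5.29% in T cells, and the log2 difference from the mean moved from 0.95 to 0.34. Mitochondrial rRNA (log2 difference 1.96) and the ribozyme class, which holds RNase P RNA (-0.92), each had an exact p of 0.0476 (adjusted p = 0.175). After adjustment none of the 11 types was called, with 3 unadjusted p-values below 0.05, and a single type at the smallest possible p would not pass over 11 types.

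Several groups gave few calls or none. None of 6 tested MHC class I and none of 10 cytoskeleton transcripts was called against the mean, with median log2 fold changes of 0.94 and 0.45. Of 15 housekeeping transcripts 3 were higher against the mean, 1 against B cells and 8 against T cells. The shares of all transcripts were 18.3%, 24.4% and 19.8%. Among the 485 protein-coding transcripts 126, 102 and 169 were higher, respectively. The protein-coding share was lower in the T cell libraries (0.645, 1.52 and 1.20%) than in the B cell libraries (2.00 to 2.89%), and its part in the calls against T cells alone was not tested. Of the 9 tested segments of a list of immunoglobulin heavy and kappa J segments, chosen with values known, none differed from B cells and 8 were higher than in T cells.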

How the data were processed

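Surface RNA of 3 NK, 3 B and 3 T cell libraries from mouse spleen was analysed, grouped by the labels. Per the labels and the study's methods, reads were trimmed, duplicates with the same barcode were removed, and the authors deposited TPM values per transcript from Kallisto; the murine transcript set is not given in the sources used here, and the submitters' processing notes also name STAR, featureCounts, cutadapt and mm10. TPM was not whole reads, so no count test was run. Transcripts above 10 TPM in at least 1 of 9 libraries entered limma 3.58.1 (R 4.3.3, trend) on log2(TPM + 1), with a cell type mean each and the contrasts of NK with the mean of B and T, with B and with T. Shares of protein-coding TPM were tested as log2(value + 50), per 1000000. The p-values measure the spread between libraries labelled as separate samples, which the study describes as independent biological replicates. The number of mice behind them is not stated in its methods. Replicate numbers were shared by the cell types. Deviations from the cell type means correlated at 0.259 to 0.512 in the 3 same-numbered pairs of T and NK libraries (-0.465 to 0.0874 in the 6 others) and at -0.351 to -0.0346 in the 6 same-numbered pairs with B cells, so the numbers were taken, from the data and not the labels, to pair NK with T libraries only, and a fit of these 6 with the number as a block was added after the data were seen.

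Named transcripts were the 15 with the largest rise and the 10 with the largest fall among called transcripts without overlap, the tested members of the gene lists, and the 2 most changed of each RNA type; any others are marked. The members and lists were chosen with earlier results of these data known. Alternatives were other pseudocounts (0.1 and 5; 5 and 250 for shares) and filters (none, 50 TPM), sums per gene, quantile normalization, removal of rRNA and of 3 transcripts with the same values as one another, no trend, same-valued transcripts counted once, a replicate block, and each library left out. The scripts were tested on simulated data. Of the tested transcripts 1063 had a position by gene ID in GENCODE M21. Monocyte and HSPC libraries, which came from bone marrow, were not used here.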

Additional observations from a re-analysis of the deposited data

How the results depend on the processing

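Counts of called transcripts moved with the filter, with the libraries and with rRNA, as follows. Against the mean of B and T cells, 247 transcripts were higher in the analysis reported and 1534 with no filter, 107 above 50 TPM, 460 without rRNA and the 3 same-valued transcripts, and 124 to 287 with 1 library left out (136 without NK library 2 and 124 without NK library 3). The 175 lower ones became 81 above 50 TPM and 78 to 248 with 1 library left out (78 without NK library 2 and 87 without NK library 3). Against B cells, the 330 higher became 1372 with no filter, 176 above 50 TPM and 249 to 344 with 1 library left out, and the 261 lower became 1386, 94 and 149 to 275 (149 and 161 without B cell library 2 or 3), and 969 without rRNA. Against T cells, the 268 higher became 959, 89 and 145 to 351 (162, 163 and 145 without T cell library 1, NK library 2 or NK library 3), with 415 for gene sums and 1161 without rRNA, and the 205 lower became 103 to 220 with 1 library left out (123, 116 and 103 without the same libraries). As shares of protein-coding RNA, the 144 higher and 146 lower became 1816 and 700 with no filter, 38 and 46 above 50 TPM, and 116 to 165 and 125 to 160 with 1 library left out. The tested transcripts numbered 96238 with no filter and 533 above 50 TPM. Of the NK lists, 12 members were higher in the analysis reported, 12 to 13 with 1 library left out and 2 above 50 TPM, and the 2 lower became 1 with a pseudocount of 5, for gene sums and under the block, 0 with no filter and above 50 TPM, and 1 to 2 with 1 library left out.

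Directions against the mean turned for Srgn (-0.0304 after quantile normalization), Tcf7 (-0.10 with a pseudocount of 5, -0.0315 to 0.60 with 1 library left out, the lowest without NK library 2, -0.13 after quantile normalization), H2-Ab1 (-0.025 with a pseudocount of 5), Ighm-202 (0.48 for gene sums), Snora16a-202 (-0.31 for gene sums) and the snoRNA share (-0.392 to 0.18 with 1 library left out); the causes were not tested. With the replicate block over all 9 libraries 236 were higher and 165 lower against the mean, and 280 and 191 against T cells. In the T and NK libraries alone, a choice made after the data were seen, 245 were higher and 209 lower, and 446 and 263 with the replicate block. Of 94 named transcripts called against the mean, 49 were called in every alternative that tested them, 43 were lost with no filter, 27 without NK library 2, 27 without NK library 3 and 16 after quantile normalization. The depth of each library is unknown.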
